A study of Mus musculus with 6 samples.

Results

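RNA levels of 54 mouse genes that carry or execute the interferon response were compared between OS3 glial cells with an empty vector (WT cells) and OS3 cells with the H3.3 K27M mutation (IG27 cells). OS3 is a glial line raised from the brain of newborn C3H/HeN mice (strain C3H, male, in the labels) and immortalized with SV40, and both groups share this immortalization, the plasmid backbone and a culture of 2 days in a medium for which no interferon is named. H3.3 K27M replaces a lysine of histone H3.3 that is normally a site of methylation and acetylation by methionine. Per the labels, 3 dishes of each group were harvested, and each dish was read on 1 single-color Agilent array of 1 slide. The methods speak of several clones raised by drug selection and do not say which were put on the arrays, so the p-values below measure the spread between dishes, and the mutation cannot be told apart from the selection of clones. The genes were taken from a list of names and comprised 19 regulators (receptors, kinases, transcription factors and feedback inhibitors), 6 sensors with their adaptors, and 29 antiviral effectors, out of 22911 genes that could be named on the array through RefSeq accessions.

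Interferons are secreted proteins that bind paired receptors on the cell surface. The receptors switch on Janus kinases, which phosphorylate STAT transcription factors; STATs join with IRF9 in a complex called ISGF3 that binds the interferon-stimulated response element (ISRE), whereas STAT dimers bind the gamma-activated site (GAS). The genes so induced include cytosolic sensors of viral nucleic acid, whose adaptor MAVS leads back to interferon production through IRF3 and IRF7, and effectors that block viral entry, translation and release.

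Promoters of the genes on which the results turn are printed here so that the motifs can be set beside the differences that follow. Each is a RefSeq promoter of the GRCm38.p6 build, 250 bases before to 50 bases after the transcription start, read 5′ to 3′ on the strand of the gene. *Oas1a*, *Oasl1* and *Irf9* are among the largest rises and the largest fall, and *Ifit1*, *Ifit2* and *Ifit3* are neighboring paralogs called in opposite directions. *Isg15* and *Bst2* were chosen after their values were seen, as genes with the same motif that were called in opposite directions, and *Irf8* as a gene with a pair of GAS motifs. Capitals mark the ISRE core (GAAA, any 2 bases, GAAA) on either strand, except in *Ifit2* and *Irf8*, in which they mark the GAS motif TTCNNNGAA. The promoters of *Oasl1* and *Irf9* hold neither motif. *Ifit2*, *Irf8* and *Irf9* each have a further RefSeq promoter at another start, which is not printed and holds neither motif.

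*Oas1a* promoter, GRCm38.p6 chr5:120907476-120907775, minus strand: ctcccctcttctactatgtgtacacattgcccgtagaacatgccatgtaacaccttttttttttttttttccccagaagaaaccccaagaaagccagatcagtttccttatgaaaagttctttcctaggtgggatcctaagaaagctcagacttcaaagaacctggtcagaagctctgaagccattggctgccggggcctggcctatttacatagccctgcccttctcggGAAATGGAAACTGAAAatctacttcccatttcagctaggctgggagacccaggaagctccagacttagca
*Oasl1* promoter, GRCm38.p6 chr5:114922990-114923289, plus strand: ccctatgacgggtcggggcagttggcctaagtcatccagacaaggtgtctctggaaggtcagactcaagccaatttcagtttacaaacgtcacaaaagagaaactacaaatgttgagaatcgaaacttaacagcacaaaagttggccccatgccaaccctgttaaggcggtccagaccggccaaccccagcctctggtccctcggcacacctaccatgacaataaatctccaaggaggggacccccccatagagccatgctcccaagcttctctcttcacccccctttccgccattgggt
*Ifit1* promoter, GRCm38.p6 chr19:34640639-34640938, plus strand: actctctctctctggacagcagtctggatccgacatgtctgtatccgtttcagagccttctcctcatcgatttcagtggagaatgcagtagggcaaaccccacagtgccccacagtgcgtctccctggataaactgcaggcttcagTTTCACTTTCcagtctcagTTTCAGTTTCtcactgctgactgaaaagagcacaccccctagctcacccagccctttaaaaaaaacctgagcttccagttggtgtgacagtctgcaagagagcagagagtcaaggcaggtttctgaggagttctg
*Ifit2* promoter, GRCm38.p6 chr19:34550444-34550743, plus strand: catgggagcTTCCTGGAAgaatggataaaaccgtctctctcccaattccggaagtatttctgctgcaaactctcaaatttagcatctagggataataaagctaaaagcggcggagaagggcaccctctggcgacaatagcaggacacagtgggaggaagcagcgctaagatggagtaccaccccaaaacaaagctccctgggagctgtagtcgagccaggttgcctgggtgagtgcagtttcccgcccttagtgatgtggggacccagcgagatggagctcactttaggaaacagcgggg
*Ifit3* promoter, GRCm38.p6 chr19:34583279-34583578, plus strand: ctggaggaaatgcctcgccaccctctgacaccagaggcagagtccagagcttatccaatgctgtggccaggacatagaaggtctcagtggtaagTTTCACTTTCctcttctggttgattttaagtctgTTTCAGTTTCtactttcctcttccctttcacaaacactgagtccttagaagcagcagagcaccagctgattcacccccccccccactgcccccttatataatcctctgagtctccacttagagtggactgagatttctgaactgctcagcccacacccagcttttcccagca
*Isg15* promoter, GRCm38.p6 chr4:156200769-156201068, minus strand: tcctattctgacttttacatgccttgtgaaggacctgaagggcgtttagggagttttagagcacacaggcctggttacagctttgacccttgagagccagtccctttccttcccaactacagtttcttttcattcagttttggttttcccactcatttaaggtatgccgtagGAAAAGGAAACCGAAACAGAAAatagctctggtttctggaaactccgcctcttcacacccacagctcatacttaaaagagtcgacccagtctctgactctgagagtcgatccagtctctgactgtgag
*Bst2* promoter, GRCm38.p6 chr8:71537423-71537722, minus strand: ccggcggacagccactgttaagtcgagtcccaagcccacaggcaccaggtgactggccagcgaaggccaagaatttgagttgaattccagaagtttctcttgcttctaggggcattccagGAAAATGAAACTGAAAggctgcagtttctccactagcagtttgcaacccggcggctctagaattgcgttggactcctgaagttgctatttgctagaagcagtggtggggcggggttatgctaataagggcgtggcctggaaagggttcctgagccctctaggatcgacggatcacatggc
*Irf8* promoter, GRCm38.p6 chr8:120736108-120736407, plus strand: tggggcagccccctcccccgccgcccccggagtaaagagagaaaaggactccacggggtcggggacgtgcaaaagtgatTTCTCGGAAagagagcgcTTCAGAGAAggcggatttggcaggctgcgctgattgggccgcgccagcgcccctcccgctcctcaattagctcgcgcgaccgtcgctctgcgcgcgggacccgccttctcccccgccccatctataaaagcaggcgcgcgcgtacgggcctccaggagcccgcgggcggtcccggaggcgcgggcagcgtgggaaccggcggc
*Irf9* promoter, GRCm38.p6 chr14:55603735-55604034, plus strand: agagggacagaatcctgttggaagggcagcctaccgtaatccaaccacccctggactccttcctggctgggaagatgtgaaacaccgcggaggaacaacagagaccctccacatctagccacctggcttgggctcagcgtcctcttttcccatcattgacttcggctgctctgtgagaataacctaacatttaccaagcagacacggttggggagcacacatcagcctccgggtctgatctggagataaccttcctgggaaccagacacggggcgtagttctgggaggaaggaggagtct

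Values below are normalized log2 intensities, that is, each probe's log2 signal after the 75th percentile of its array was subtracted, and a difference is IG27 minus WT on that log2 scale with its standard error. Of the 54 genes, 50 had a probe, and *Mx1*, *Mx2*, *Oas1b* and *Ifitm2* had none by RefSeq accession. The probes of *Oas3*, *Ifitm1* and *Trim25* were too dim in both groups (not well above background throughout either of them) and were not tested. Of the 47 genes tested, 45 passed this filter in both groups, while *Irf5* and *Ifi44* passed only through the IG27 arrays and so had to be higher there. The 6 arrays had 58.8% to 61.2% of 56605 probes well above background where the flag was given and no saturated probe. For IG27 replicate 2 the scanner output ends early, after 285 of 62976 spots, and its values came from the deposited value table. The brightest probe of *H3f3a*, the gene of the transgene, read 6.96, 6.70 and 6.85 in WT and 6.61, 6.52 and 6.61 in IG27 (difference -0.26 ± 0.08, adjusted p = 0.0237), and the differences of its 3 probes ran from -0.26 to 0.17. Whether any of these probes lies in the transfected sequence is not given in the sources used here, so this gene does not check the labels.

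Most interferon genes differed between IG27 and WT cells, and more of them were higher than lower. Of the 47 tested, 29 were higher in IG27 cells (61.7%), 10 were lower (21.3%) and 8 did not pass the test (limma, adjusted p at 0.05). The 10 include *Adar* by its brightest probe, whose other probe was called as higher. Differences were common on these arrays, since 70.5% of the 14898 genes tested were called, 30.5% as higher and 40.0% as lower. The share of interferon genes called, 83.0%, was therefore not far above the background, and the split between directions differed more. Among the interferon genes, 13 rose at least 2-fold and 1 fell at least 2-fold, beside 11.5% and 11.7% of all genes; the 13 include *Irf5* and *Ifi44*, whose folds are against dim WT probes. The 3 WT and 3 IG27 values did not overlap in 42 of the 47, beside 75.7% of all genes. The median difference was 0.31 for the 47 genes and -0.07 for all genes tested. By class, the medians were 0.28 for the regulators, 0.68 for the sensors and 0.64 for the effectors. With dim probes kept in, the effectors had a median of 0.36 and all genes a median of 0.12. The arrays read RNA of whole dishes, so fewer cells of a kind and less RNA per cell cannot be told apart.

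**Figure D1:**
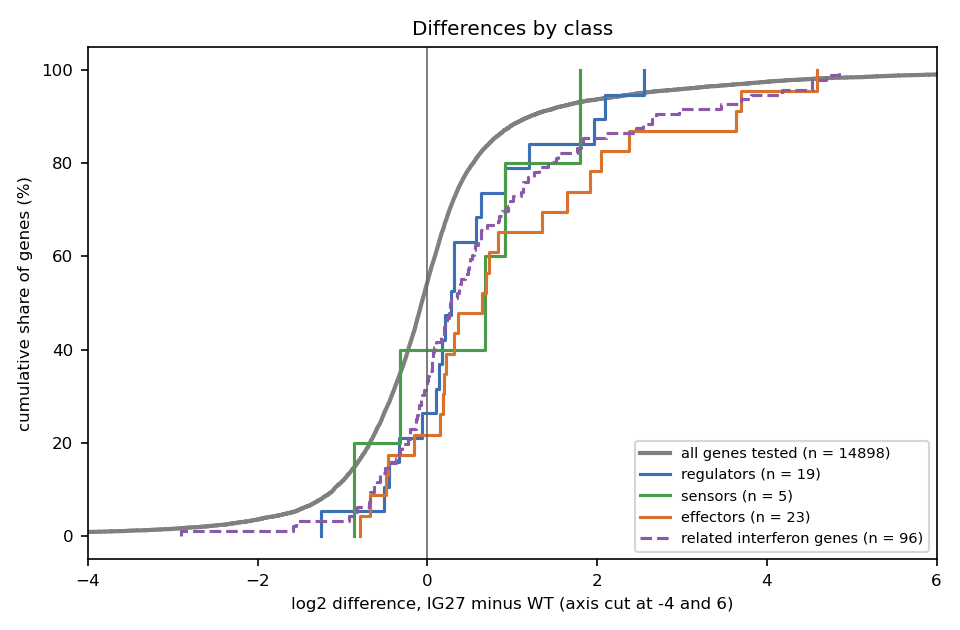
Cumulative share of genes (percent, vertical axis) by log2 difference, IG27 minus WT (horizontal axis), for all 14898 genes tested and for the regulators, sensors, effectors and related interferon genes. The curve of the 23 effectors lies to the right of that of all genes, with medians of 0.64 and -0.07 (0.36 and 0.12 without the filter on dim probes, not drawn).

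The glial label was checked against marker genes. All 7 markers of the oligodendrocyte lineage were well above background on every complete IG27 array and 6 on every WT array. Of 6 astrocyte markers 5 were so in each group, all but *Slc1a3* in WT and all but *Aqp4* in IG27. Among microglia and macrophage markers, 5 of 8 were well above background on every WT array and 6 on every complete IG27 array. Their summed level (log2 of the summed normalized signals) was 3.94 to 4.03 in WT and 3.90 to 3.94 in IG27. *Ptprc* (CD45), the pan-leukocyte marker, and *Cx3cr1* had probes too dim to test. *Csf1r*, the receptor of macrophage colony-stimulating factor, read 0.93, 1.04 and 1.09 in WT and -0.21, -0.56 and -0.86 in IG27, a difference of -1.57 ± 0.16 (adjusted p = 0.000222). *Tmem119* was also lower (-0.76 ± 0.08), while *P2ry12* (0.49 ± 0.07), *Cd68* (0.31 ± 0.07) and *Itgam* (0.20 ± 0.05) were higher. *Aif1* (Iba1) was well above background on 1 of 3 WT arrays and passed the filter through the IG27 arrays alone. Its fitted difference of 1.66 ± 0.30 is therefore a description. The summed level of the astrocyte markers was 6.58 to 6.72 in WT and 5.78 to 5.99 in IG27. *Gfap* (-1.07 ± 0.09), *Slc1a2* (-1.03 ± 0.09) and *Aldh1l1* (-1.72 ± 0.35) were lower, *S100b* was higher (4.93 ± 0.09) and *Aqp4* was not called (0.12 ± 0.20). *Slc1a3*, not well above background on any WT array, passed the filter through the IG27 arrays alone. Its bound of at least 20.6-fold higher in IG27 is a description. For the oligodendrocyte lineage the summed level was 6.20 to 6.24 in WT and 6.22 to 6.27 in IG27. For 4 neuron markers it was 4.13 to 4.31 and 2.74 to 2.89, which follows *Tubb3* (-2.63 ± 0.06), while *Snap25* was not called (-0.11 ± 0.11, adjusted p = 0.41) and *Rbfox3* and *Syt1* were too dim to test. For 5 fibroblast markers it was 6.98 to 7.01 and 6.01 to 6.12, with *Col1a1* (-0.92 ± 0.05) and *Pdgfrb* (-1.16 ± 0.04) lower and *Col1a2* and *Lum* too dim to test. *Dcn*, too dim in WT, passed the filter through the IG27 arrays alone. Its bound of at least 3.32-fold higher in IG27 is a description. For 4 endothelial markers the summed level was -2.57 to -2.39 in WT and -2.79 to -2.59 in IG27. The part of any of these in the interferon results was not tested.

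Among the regulators, receptors were higher or did not pass the test. Of the 4 receptor chains, 3 rose and none fell. *Ifngr1* encodes the chain that binds interferon gamma. Its values were 1.42, 1.35 and 1.55 in WT and 2.65, 2.52 and 2.74 in IG27, which do not overlap, and it was 2.29-fold higher (difference 1.20 ± 0.08, adjusted p = 3.03e-05). The signaling chain of the same receptor, *Ifngr2*, rose by 0.31 ± 0.06 (adjusted p = 0.00326). For the receptor of type I interferons, *Ifnar2* rose by 0.31 ± 0.06 (adjusted p = 0.00294) and *Ifnar1* had a difference of 0.17 ± 0.07 that missed the threshold (adjusted p = 0.0682). With the mean of its probes in place of the brightest, the rise of *Ifnar2* was 0.68.

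The Janus kinases went the other way or did not pass. *Jak1*, the kinase used by both receptor types, read 5.33, 5.18 and 5.34 in WT and 4.83, 4.77 and 4.70 in IG27. All IG27 values lay below all WT values, and the level fell by 0.51 on the log2 scale, 1.43-fold (SE 0.07, adjusted p = 0.000593). *Tyk2*, its partner at the type I receptor, fell by 0.33 (SE 0.04, adjusted p = 0.000754). *Jak2*, its partner at the gamma receptor, had a difference of 0.21 ± 0.08 (adjusted p = 0.0522), which was called in 6 of 17 other settings and rose to 0.47 with the mean of its probes.

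The STATs among these genes were not called. *Stat2*, the subunit of ISGF3 that carries its activation domain, read 2.58, 2.82 and 2.93 in WT and 2.66, 2.69 and 2.77 in IG27. The groups overlap, and the difference of -0.07 ± 0.10 (adjusted p = 0.542) changed sign in 3 other settings. *Stat3*, used mainly by interleukin 6 family receptors, had a difference of 0.10 ± 0.06 (adjusted p = 0.192), and was called with a difference of 0.26 under quantile normalization.

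The interferon regulatory factors moved in both directions, with 4 of 7 higher and 2 lower. The 4 include *Irf5*, which passed the filter only through the IG27 arrays. *Irf8*, known from myeloid cells as a lineage factor, had values of -2.07, -2.03 and -2.01 in WT and 0.08, 0.02 and 0.05 in IG27. The dishes of each group lay close together, far from those of the other group, and the rise was 4.25-fold (2.09 ± 0.05, adjusted p = 3.21e-07). *Irf7*, the factor that amplifies type I interferon production, rose by 0.91 ± 0.08 (1.87-fold, adjusted p = 0.000132), and *Irf1*, an early target of interferon gamma, by 0.28 ± 0.07 (adjusted p = 0.00884). *Irf5*, an activator downstream of Toll-like receptors, was not well above background on any WT array (-6.84, -5.64 and -6.84) and read -4.06, -3.78 and -3.84 in IG27. Set against the lowest signal that counted as well above background in WT, it was at least 3.67-fold higher in IG27. Its direction was set by the filter, so these values are a description. The call of *Irf1* was lost with the slide row as a block (0.20, adjusted p = 0.102), and the fitted difference of *Irf5* was 0.94 with normexp background correction beside 2.55.

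*Irf9* had the largest fall of the 47 genes. It encodes the DNA-binding subunit of ISGF3, and its values were 3.90, 3.82 and 3.90 in WT and 2.60, 2.63 and 2.61 in IG27. All dishes of a group lay close together, and the level was 2.40-fold lower (-1.26 ± 0.05, adjusted p = 2.5e-06). Its second probe fell by 1.15 (SE 0.05). *Irf2*, a repressor that competes with IRF1, fell by 0.45 (SE 0.06, adjusted p = 0.000907), and *Irf3*, the factor activated by nucleic acid sensing, had a difference of 0.14 ± 0.07 that was not called (adjusted p = 0.119).

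All 3 feedback inhibitors were higher. *Socs3*, which blocks Janus kinases at cytokine receptors, read 3.35, 3.31 and 3.38 in WT and 5.33, 5.30 and 5.29 in IG27. That is a 3.89-fold rise (1.96 ± 0.05, adjusted p = 3.74e-07) with a wide gap between the groups. *Socs1*, the inhibitor of JAK1 and JAK2 signaling, rose by 0.63 ± 0.05 (adjusted p = 6.69e-05), and *Usp18*, which removes ISG15 from proteins and silences the type I receptor, by 0.57 ± 0.06 (adjusted p = 0.000327).

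**Figure D2:**
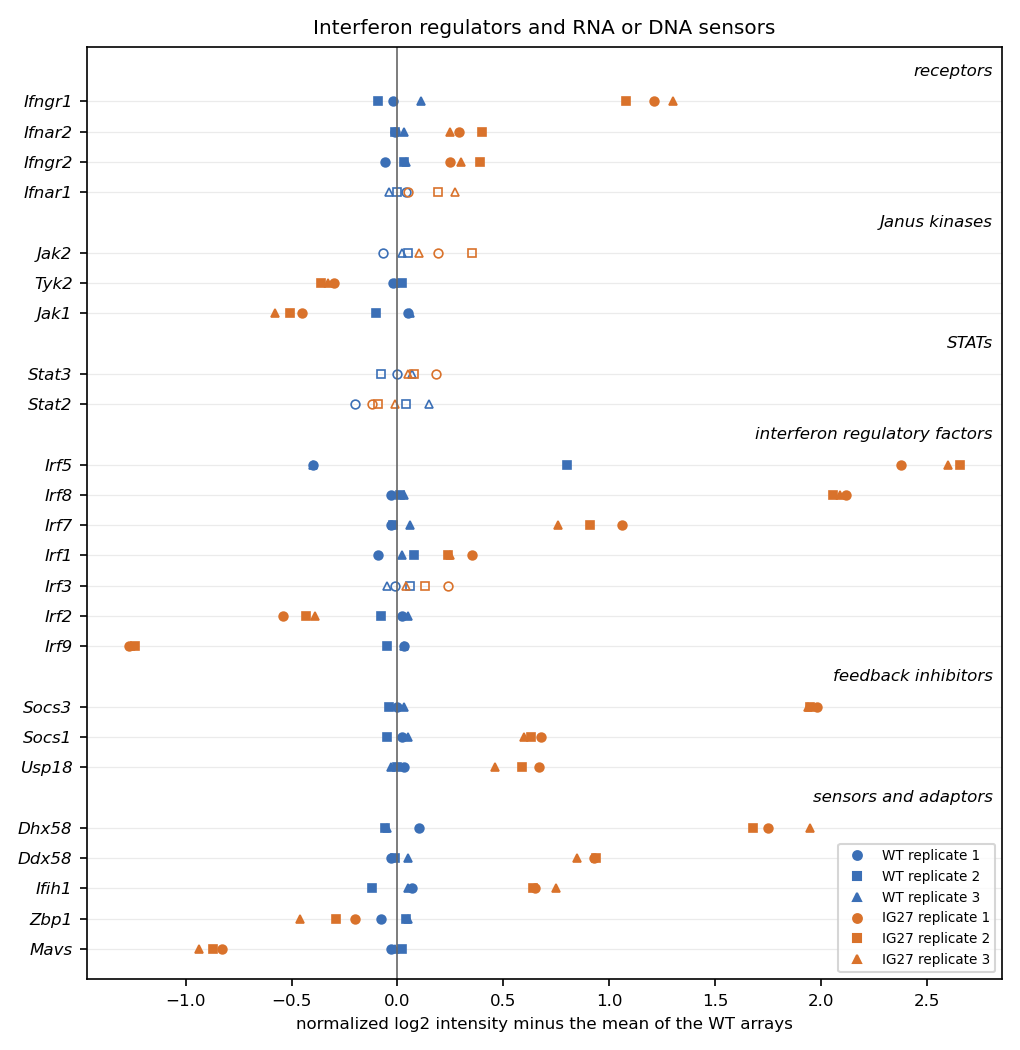
Normalized log2 intensity of each array minus the mean of the WT arrays (horizontal axis) for the 24 regulators and sensors tested, by family, with 3 WT arrays in blue and 3 IG27 arrays in orange. Filled symbols mark genes called at an adjusted p under 0.05 and open symbols those not called. *Irf8* (2.09) and *Socs3* (1.96) lie well to the right of WT, and *Irf9* (-1.26) is the farthest to the left.

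The cytosolic RNA sensors were higher in IG27 cells, whereas their adaptor was lower. Of the 5 genes tested in this class, 3 rose and 2 fell. *Dhx58* encodes LGP2, the regulator among the RIG-I-like receptors. It read -1.08, -1.24 and -1.23 in WT and 0.57, 0.50 and 0.77 in IG27, a 3.47-fold rise (1.80 ± 0.09, adjusted p = 7.73e-06). *Ddx58* encodes RIG-I itself, and its brightest probe read 2.94, 2.96 and 3.02 in WT and 3.90, 3.91 and 3.82 in IG27 (0.91 ± 0.05, adjusted p = 1.45e-05). Its 4 probes rose by 0.91 to 1.43, all called. *Ifih1*, encoding the sensor of long double-stranded RNA MDA5, rose by 0.68 ± 0.07 (adjusted p = 0.000191).

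*Mavs*, the mitochondrial adaptor on which RIG-I and MDA5 converge, was 1.83-fold lower. Its values were 2.48, 2.53 and 2.50 in WT and 1.68, 1.64 and 1.57 in IG27, with no overlap (-0.87 ± 0.05, adjusted p = 1.54e-05). *Zbp1*, a sensor of Z-form nucleic acid, had a difference of -0.32 ± 0.08 (adjusted p = 0.0117) that was no longer called with the slide row as a block (-0.36, adjusted p = 0.0518). The median of 0.68 of this class rests on 5 genes and was 0.38 without WT replicate 1, where *Trim25* also entered.

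*Oasl1*, *Oas2* and *Oas1a*, of the 2′-5′ oligoadenylate synthetase family, had the largest rises of the 47 genes. The synthetases proper sense double-stranded RNA and activate RNase L. All 4 family members tested were higher, with a median difference of 3.67. *Oas1a* read -0.01, 0.02 and 0.10 in WT and 3.80, 3.63 and 3.62 in IG27, a 12.5-fold rise (3.64 ± 0.07, adjusted p = 1.83e-07). *Oas2* read -1.04, -0.99 and -1.15 against 2.65, 2.58 and 2.68, a 13.0-fold rise (3.70 ± 0.06, adjusted p = 1.39e-07). In both genes the spread between dishes was small beside the gap between the groups.

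The *Oas*-like genes rose as well, with a wider spread in WT. *Oasl1*, a translational repressor of *Irf7* in mice, read -2.46, -4.13 and -4.33 in WT and 0.95, 0.92 and 0.97 in IG27, a 24.0-fold rise (4.59 ± 0.48, adjusted p = 0.000235). WT replicate 1 was higher than the other WT arrays, and without it the difference was 5.18. The second *Oasl1* probe rose by 5.17 ± 0.20. *Oasl2* read 1.67, 2.60 and 2.62 in WT and 3.63, 3.61 and 3.70 in IG27 (1.35 ± 0.26, adjusted p = 0.00377), here with WT replicate 1 below the others. Without WT replicate 1 the difference of *Oasl2* was 1.03 (adjusted p = 5.72e-05), and with the slide row as a block it was 1.05 and not called (adjusted p = 0.0516). The dim *Oas3* probe, not tested, read -2.71 in WT replicate 1, the only array on which it was well above background, and -7.36 or less on the other 5 arrays.

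The *Ifit* genes moved apart although they lie side by side on chromosome 19. *Ifit3* read 2.71, 2.67 and 2.78 in WT and 4.34, 4.38 and 4.39 in IG27, a 3.14-fold rise (1.65 ± 0.05, adjusted p = 1.06e-06). *Ifit1* read 1.10, 0.81 and 1.20 against 1.89, 1.83 and 1.90 (0.83 ± 0.10, adjusted p = 0.000503). *Ifit2*, in contrast, read 1.13, 1.22 and 1.22 in WT and 0.56, 0.74 and 0.80 in IG27, and fell 1.40-fold (-0.49 ± 0.07, adjusted p = 0.00133). No pair of groups overlaps in these 3 genes. The promoters printed above hold 2 ISRE cores each in *Ifit1* and *Ifit3* and none in *Ifit2*, as a description of the sequence only. The further *Ifit2* promoter, not printed, holds none either, and sequence outside these windows was not searched.

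Among the other effectors, 6 of 10 tested were higher and 3 lower, *Adar* again counted by its brightest probe. The 6 include *Ifi44*, which passed the filter only through the IG27 arrays. *Rsad2*, encoding viperin, which makes a chain-terminating nucleotide, read -0.57, -0.57 and -0.71 in WT and 1.43, 1.40 and 1.46 in IG27, a 4.13-fold rise (2.05 ± 0.06, adjusted p = 8.66e-07). Its second probe rose by 2.39 ± 0.10. *Rtp4*, a chaperone of receptors that is induced by interferon, read 2.24, 2.18 and 2.26 against 4.29, 4.18 and 3.95, a 3.77-fold rise (1.92 ± 0.09, adjusted p = 7.61e-06). In both genes the lowest IG27 dish lay far above the highest WT dish.

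*Isg15*, the ubiquitin-like modifier, read 6.30, 6.39 and 6.41 in WT and 7.17, 6.98 and 7.01 in IG27 (0.69 ± 0.07, adjusted p = 0.000182). Smaller rises were seen for *Xaf1*, a promoter of cell death (0.36 ± 0.05, adjusted p = 0.00108), and for *Eif2ak2*, encoding the RNA-activated kinase PKR that halts translation (0.31 ± 0.05, adjusted p = 0.00117). *Ifi44* was well above background on 1 of 3 WT arrays and passed the filter through the IG27 arrays alone, so its values are a description. It read -5.65, -6.46 and -5.55 in WT and -3.50, -3.77 and -3.27 in IG27, and the fitted difference of 2.37 was 1.07 with normexp background correction. *Ifi35*, a scaffold of innate signaling, had a difference of -0.16 ± 0.10 and was not called (adjusted p = 0.186).

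Besides *Ifit2*, the effectors called as lower were *Samhd1*, *Bst2* and *Adar*, the last by its brightest probe only. *Samhd1*, the enzyme that lowers nucleotide pools during retroviral infection, read 3.31, 3.21 and 3.31 in WT and 2.62, 2.64 and 2.52 in IG27, a 1.61-fold fall (-0.68 ± 0.06, adjusted p = 7.71e-05), and its 3 probes ran from -0.72 to -0.68. *Bst2*, encoding tetherin, which holds budding virus at the cell surface, read 2.92, 3.36 and 3.46 against 2.78, 2.81 and 2.78 (-0.46 ± 0.14, adjusted p = 0.0258). WT replicate 1 lay close to the IG27 values. Without it the difference was -0.62 (adjusted p = 0.000423), and the call was lost in 9 of 17 other settings, in which the adjusted p ran from 0.0572 to 0.0931.

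*Adar*, the enzyme that converts adenosine to inosine in double-stranded RNA, could not be given a direction. Its brightest probe read 2.62, 2.74 and 2.67 in WT and 1.81, 1.90 and 1.95 in IG27 (-0.79 ± 0.06, adjusted p = 5.19e-05). The other probe read -0.92, -0.90 and -0.97 in WT and -0.11, -0.11 and -0.06 in IG27 (0.84 ± 0.05). Each probe separated the groups, in opposite directions, and their mean differed by 0.02 (adjusted p = 0.676).

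The *Gbp* and *Ifitm* genes of the 54 that were tested had differences of 0.15 to 0.22. *Gbp3*, a GTPase that attacks pathogen-containing vacuoles, read 4.06, 3.94 and 4.13 in WT and 4.23, 4.25 and 4.29 in IG27 (0.22 ± 0.06, adjusted p = 0.021), a call that was lost in 4 of 17 other settings. *Gbp2* (0.15 ± 0.06, adjusted p = 0.0675) and *Gbp7* (0.18 ± 0.10, adjusted p = 0.16) were not called. *Ifitm3*, which stops viral fusion in endosomes, read 5.88, 5.84 and 5.88 against 6.15, 6.01 and 6.06 (0.20 ± 0.05, adjusted p = 0.014), and was not called with the slide row as a block (adjusted p = 0.0584). Both ADP-ribosyltransferases were higher. *Parp14* read 2.22, 2.22 and 2.40 in WT and 3.00, 3.00 and 3.02 in IG27 (0.72 ± 0.06, adjusted p = 0.000103), and *Parp9*, which acts with a ubiquitin ligase in interferon signaling, rose by 0.64 ± 0.07 (adjusted p = 0.000264).

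**Figure D3:**
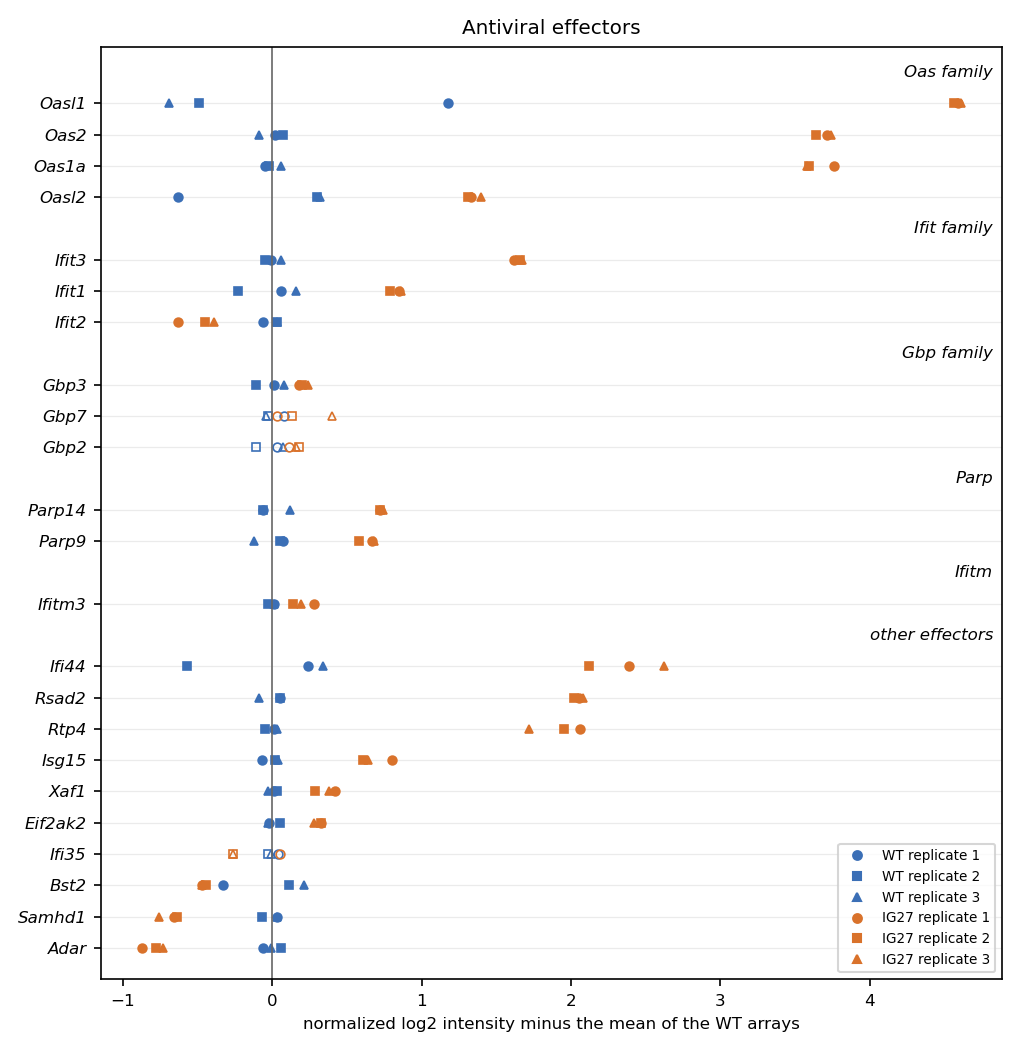
Normalized log2 intensity of each array minus the mean of the WT arrays (horizontal axis) for the 23 effectors tested, by family, with 3 WT arrays in blue, 3 IG27 arrays in orange and open symbols for genes not called. *Oasl1*, *Oas2* and *Oas1a* lie farthest to the right of WT, while *Ifit2*, *Bst2*, *Samhd1* and the brightest *Adar* probe lie to the left.

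Several genes were read by more than 1 probe, which gives a check inside the array. The 50 genes carried 75 probes, 69 of them tested and 56 called (69.7% of all 21895 tested probes were called in the fit over probes). Of the 18 genes with several tested probes, 10 had all probes called in the same direction: *Ddx58*, *Ifnar2*, *Irf7*, *Irf9*, *Oasl1*, *Parp14*, *Rsad2*, *Samhd1*, *Xaf1* and *Zbp1*. Probes of both signs were found in *Adar*, *Ifnar1* and *Stat2*, with calls in both directions in *Adar* alone. For *Ifnar1*, the dimmer probes had differences of 0.21 ± 0.10 and -0.23 ± 0.06, the second called as lower (adjusted p = 0.0174). *Stat3* and *Jak2* each had a dimmer probe called as higher, by 0.61 ± 0.09 and 0.74 ± 0.16. Sizes varied between probes of 1 gene, as in *Xaf1* (0.36 and 1.12). Which transcripts each probe binds was not examined here.

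**Figure D4:**
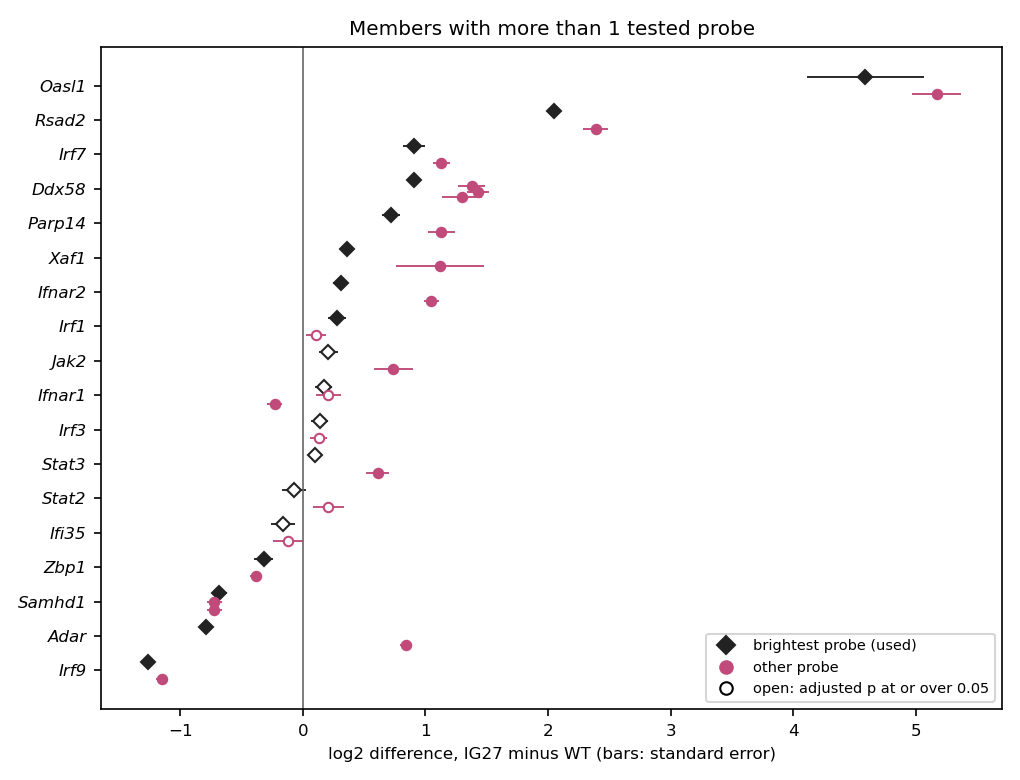
Log2 difference, IG27 minus WT (horizontal axis, bars: standard error), for every tested probe of the 18 genes with more than 1 tested probe. Black diamonds are the brightest probe, used for the gene, magenta circles the other probes, and open symbols probes not called; the *Adar* probes lie at -0.79 and 0.84.

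Promoter motifs were then set beside the differences. Of the 54 genes, 44 had an entry among the RefSeq promoters, and the ISRE core (GAAA, any 2 bases, GAAA), searched on both strands, was found in 18 of them (40.9%), against 3.44% of all 32851 promoters and 3.99% of 27025 genes. It was more frequent among the effectors (13 of 22) than among the regulators (3 of 18), and was present in 2 of 4 sensors. The GAS motif TTCNNNGAA was found in 15 of 44 (34.1%), against 9.55% of genes. The genes are well-known targets of interferon, so these shares describe the choice of genes. Some matches overlap each other. *Isg15* had 3 overlapping ISRE cores between bases -78 and -57 from the start, *Oas1a* a pair between -20 and -5, and *Bst2* a pair between -130 and -115 that overlaps a GAS match.

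Genes with a match were found in both directions. Of the 16 tested genes with an ISRE core, 11 were higher, 2 lower (*Irf2* and *Bst2*) and 3 not called (*Stat2*, *Gbp2* and *Gbp7*), with a median difference of 0.47. Of the 24 tested without it, 12 were higher and 7 lower (*Adar* by its brightest probe), with a median of 0.24. Over all genes tested, 36.2% of 437 with the core were higher and 34.3% lower, and 29.9% of 11371 without it were higher and 40.8% lower. For the GAS motif, 7 of 15 tested genes were higher and 5 lower (*Adar* by its brightest probe), with a median of 0.18, against 0.63 for the 25 without it. Over all genes tested, 28.6% of 1001 with this motif were higher and 41.8% lower. Of 10807 without it, 30.2% were higher and 40.4% lower. The medians of these wider sets were -0.08 with it and -0.07 without it. *Irf8* had GAS matches at -171 to -163 and -153 to -145 and *Socs3* at -154 to -146, and both genes were higher, while *Samhd1* and *Ifit2* had matches at -235 to -227 and -241 to -233 and were lower. *Oasl1*, with the largest rise, and *Irf9*, with the largest fall, had neither motif in these windows.

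**Figure D5:**
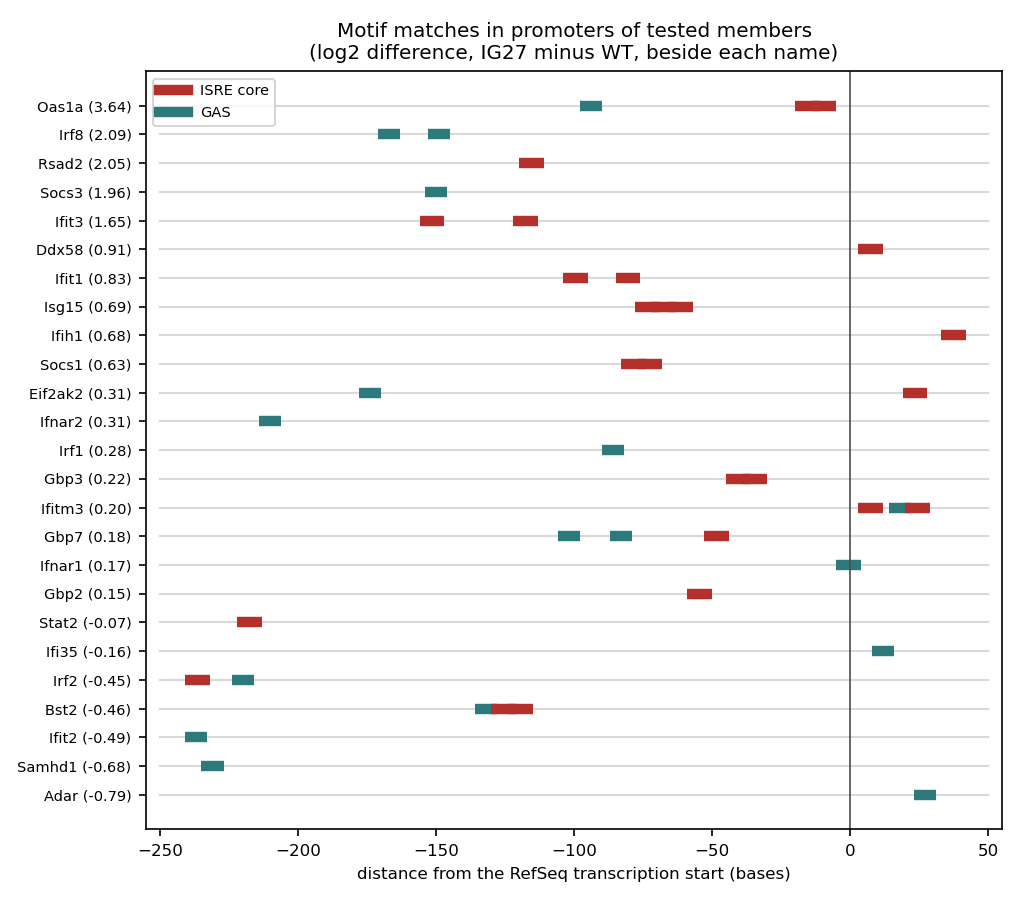
Positions of ISRE core (red) and GAS (teal) matches along the promoters of tested genes with at least 1 match, in bases from the RefSeq transcription start (horizontal axis), ordered by the log2 difference given beside each name. Genes with ISRE cores run from *Oas1a* (3.64) to *Bst2* (-0.46).

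Other genes of the pathway, 122 in number, were read beside these. Of the 96 tested, 52 were higher in IG27 cells and 22 lower, with a median difference of 0.27. The effectors of this wider list had 35 of 58 higher and 9 lower (median 0.52), and the sensing genes 8 of 17 higher and 4 lower (median 0.07). In the receptors and signaling group, which holds the PIAS inhibitors and protein tyrosine phosphatases, 7 of 15 were higher and 8 lower (median -0.20).

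The interferon genes themselves were dim. *Ifnb1*, *Ifng* and *Ifna4* had probes too dim to test, and *Ifnz* and *Ifnl2* had no probe by accession. *Ifnk*, interferon kappa, was not well above background on any WT array (-7.81, -7.49 and -7.99). It read -3.21, -3.02 and -2.98 in IG27 and was at least 6.51-fold higher there. *Ifna2* rose by 0.40 ± 0.13 (adjusted p = 0.03). *Ifne*, interferon epsilon, was well above background on all WT arrays (-5.31, -5.12 and -5.10). It read -7.06, -6.06 and -7.05 in IG27, was well above background on no complete array there and was at least 1.13-fold lower. The values of *Ifnk* and *Ifne* are a description, since each passed the filter only through the group in which it was higher. *Ifna1* (-0.04 ± 0.09, adjusted p = 0.709), *Ifnl3* (0.00 ± 0.10, adjusted p = 0.968) and *Ifna5* (0.19 ± 0.08, adjusted p = 0.0751) were not called.

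Outside the ligands, the largest rises of the wider list were *Gbp4*, *Phf11d* and *Iigp1*. *Gbp4*, a guanylate-binding protein, was not well above background on any WT array and was at least 25.9-fold higher in IG27. It passed the filter through the IG27 arrays alone, so this value is a description. *Phf11d* read -0.85, -0.92 and -0.96 in WT and 3.64, 3.64 and 3.56 in IG27, a 23.1-fold rise (4.53 ± 0.05, adjusted p = 7.43e-08). *Iigp1* read -2.24, -2.68 and -2.45 against 2.16, 2.01 and 2.03, a 23.0-fold rise (4.53 ± 0.12, adjusted p = 5.86e-07). By fitted difference the largest falls were *Ikbke*, *Ifit1bl1* and *Ifne*, but *Ikbke* and *Ifne* were too dim in IG27 for more than a bound. *Ikbke*, the kinase that with TBK1 activates IRF3 and IRF7, read -2.40, -2.85 and -2.76 in WT. It was not well above background on the complete IG27 arrays and was at least 6.38-fold lower there. Having passed the filter through the WT arrays alone, it is given as a description. *Ifit1bl1*, an *Ifit1*-like gene, was 2.99-fold lower (-1.58 ± 0.08, adjusted p = 1.07e-05).

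A few further genes were chosen after their values were seen. *Sting1*, the adaptor of cytosolic DNA sensing, read -3.03, -3.39 and -3.37 against 0.62, 0.50 and 0.53, a 14.1-fold rise (3.81 ± 0.11, adjusted p = 8.66e-07), while *Cgas*, the DNA sensor that feeds it, rose by 0.44 ± 0.12 (adjusted p = 0.0152). *Tbk1*, the kinase downstream of both *Mavs* and *Sting1*, was not called (-0.10 ± 0.06, adjusted p = 0.181). *Oas1g* and *Ifit3b*, close paralogs of *Oas1a* and *Ifit3*, rose by 2.96 ± 0.13 (adjusted p = 4.49e-06) and 2.46 ± 0.08 (adjusted p = 1.24e-06), and whether the probes of such paralogs bind each other's transcripts was not examined.

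The position on the slide differed between the groups, since WT replicates 1 and 3 lay in row 1 and WT replicate 2 with all IG27 arrays in row 2. With the row as a block, which sets IG27 against WT replicate 2, 27 interferon genes were higher and 8 lower, and of all 14898 genes 3942 were higher and 5004 lower, beside 4546 and 5955 without the block.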

How the data were processed

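Per the labels and the study's methods, RNA of 3 WT and 3 IG27 dishes was labeled with Cy3, hybridized to 1 Agilent 8 × 60K slide and read with Feature Extraction (9.1 in the submitters' processing notes, 10.7.3.1 per the file headers). The deposited processed signal is an intensity on a linear scale, and the authors' value table repeats this intensity for each probe, not scaled between arrays. In that table WT replicates 2 and 3 are exchanged relative to the scanner output, whose labels were followed. IG27 replicate 2 came from the table, and no flag was available for most of its spots.

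Log2 intensity minus the 75th percentile of each array was computed, with spots bearing an outlier flag (107 to 210 on the complete arrays) left out. Of 56605 probes, 32994 were named for 22911 genes through unversioned RefSeq accessions (GRCm38.p6). A probe was tested if it was well above background throughout the complete arrays of 1 group or both, and the brightest probe stood for a gene. The median processed signal was 55.4 to 77.6 over a local background of 29.0 to 34.0, and the number of arrays limits the precision. The test was limma's moderated test (lmFit, then eBayes; two-sided; no blocking factor; limma 3.58.1, R 4.3.3), adjusted by Benjamini-Hochberg over 14898 genes with a threshold of 0.05. No list was tested, and lists are described by counts and medians. The 54 genes and all lists were chosen with earlier results of these data known. Each array's value is given for genes called with a difference of at least 1 and for the extremes of each family; of the wider list, the 3 largest called differences in each direction and every ligand are named. An "at least" fold sets the brighter group's mean against, per array of the dimmer group, the higher of the dim probe's signal and the lowest signal well above background.

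Alternatives were the complete arrays only, the value table, quantile normalization, normexp (run on the processed signal with offset 50, since the files hold no mean signal), no filter and a stricter filter, outlier spots kept, all tested probes of a gene averaged, a trend in eBayes, blocks for slide row or replicate number, and each array left out. The steps were tested on simulated data.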

Additional observations from a re-analysis of the deposited data

How the results depend on the processing

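Of the 39 interferon genes called, 32 kept their call and direction in each of the 17 other settings that could be run for them (leaving out IG27 replicate 2 and using complete arrays only are the same fit), 6 lost the call in at least 1 and 1 (*Adar*) changed sign. Over all settings, 759 of 797 values for single genes kept their direction and their side of the threshold. The number of genes higher ran from 27 (slide row as a block) to 34 (quantile normalization) around 29, and the number lower from 8 to 10 around 10. *Adar* had a difference of 0.02 with the mean of its probes, and *Stat2* had 0.07 with quantile normalization, 0.07 with the mean of its probes and -0.17 to 0.01 with single arrays left out (0.01 without WT replicate 3). *Irf1*, *Oasl2*, *Ifitm3* and *Zbp1* lost the call with the slide row as a block, *Gbp3* in 4 settings and *Bst2* in 9. Of the 8 genes not called, 6 were called in some setting.

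The median difference of the regulators (0.28) was 0.40 with quantile normalization, 0.36 with the mean of the probes and 0.20 with the slide row as a block, and ran from 0.23 to 0.30 with single arrays left out. That of the sensors (0.68) was 0.50 without the filter, 0.80 with the slide row as a block, and ran from 0.38 (without WT replicate 1, when *Trim25* passed the filter) to 0.71 with single arrays left out. For the effectors (0.64), the median was 0.74 with quantile normalization, 0.36 without the filter, 0.50 with the filter in both groups, 0.69 with the mean of the probes and 0.59 with the slide row as a block, and ran from 0.46 to 0.68 with single arrays left out. Apart from the changes that the construction of a setting explains (fewer or more genes tested), the cause was not tested. The median of all genes was -0.07, -0.05 with quantile normalization and 0.12 without the filter.

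Replicate numbers did not pair the arrays. The correlation of same-numbered deviations from the group means was 0.0118, 0.0395 and 0.0763 for replicates 1, 2 and 3, and WT replicate 2 went best with IG27 replicate 1 (0.059). With the replicate block, 29 interferon genes were higher and 10 lower, as without it, and 4476 and 5833 of all genes.

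Signal over background limits the dim genes: the differences of *Irf5* and *Ifi44*, 2.55 and 2.37, were 0.94 and 1.07 with normexp background correction. The 3 dishes of each group give no measure of variation between clones.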
